A study of Caenorhabditis elegans with 15 samples.

Results

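The nas genes of Caenorhabditis elegans, named for nematode astacin, were chosen by their name alone, as every gene of the deposited expression table called nas followed by a number. This gave 37 genes of the 46906 in the table, of which 36 are annotated as protein coding and nas-40 as a pseudogene. RNA was taken from whole wild-type N2 worms on day 12 of adulthood, in 3 groups of 5 libraries. From the L4 larval stage, worms were kept with Cuscuta chinensis seed extract at 30 µg/mL (C. chinensis), with Eucommia ulmoides bark extract at 30 µg/mL (E. ulmoides), or with the solvent alone (DMSO). Both extracts were dissolved in DMSO, so that all groups received the solvent at 0.05%. All groups also received FUdR (100 µM), a drug that keeps adults from leaving progeny, and 2 mg/mL carbenicillin, at 22 °C. Each library is a pool, from tubes of about 3000 to 4000 worms. The titles number the libraries as biological replicates without saying whether they came from separate cultures, so that p-values measure the spread between these pools.

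Astacins are zinc metalloproteases that are made with a propeptide and mostly secreted, and they cut proteins outside the cell such as collagens. In C. elegans, members of the family are known from hatching, from the making and shedding of the cuticle, and from the shaping of the pharynx. The cuticle is a collagen matrix laid down by the epidermis, and it is shed at each larval molt. The nas genes are sorted into subgroups by the domains beside the catalytic domain. Subgroup I has none, II has ShK domains, III has EGF-like and CUB domains, V has thrombospondin repeats, and VI is built like the vertebrate protease BMP1 and the fly protease tolloid. The worm genes toh-1, hch-1 and dpy-31 are astacins of subgroups III and V under other names, and these 3 are given beside the nas genes.

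Expression was given as FPKM, fragments per kilobase of gene length and per 1e6 fragments of the library. The libraries held 37920765 to 87238546 fragments (median 44644089), recovered from the deposited values. Fold changes are log2 values between groups after a scaling between libraries. The scaling divided the FPKM by factors of 1.06 to 1.16 in C. chinensis libraries, 0.873 to 0.914 in E. ulmoides libraries and 0.942 to 1.03 in DMSO libraries, so that a fold change with C. chinensis is smaller than the quotient of the FPKM means. A gene is called higher or lower at a Benjamini-Hochberg adjusted p (p_adj) under 0.05 together with a fold above 1.5 or below 0.667. The adjustment runs over all 13743 genes with at least 1 FPKM in at least 5 libraries.

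Of the 37 nas genes, 14 passed this filter on low values, of which nas-4 and nas-20 passed only because C. chinensis libraries were counted. Of the other 23, 19 stayed under 1 FPKM in every library, 3 reached 1 FPKM in 1 library and 1 in 2 libraries. nas-2 was listed at 0 in all 15 libraries, and so was Y19D10A.6, a second locus to which the Ensembl annotation gives the name nas-2. The mean level was at least 5 FPKM for 4 members in C. chinensis libraries, 2 in E. ulmoides libraries and 2 in DMSO libraries. It was under 0.1 FPKM for 8, 9 and 9 members in C. chinensis, E. ulmoides and DMSO libraries. On the FPKM scale, which is per length, the order of mean levels began with nas-11, nas-37, nas-9 and nas-5 in all 3 groups. In DMSO libraries the ranges of nas-11 and nas-37 overlapped, as did those of nas-9 and nas-5, whereas in C. chinensis libraries the ranges of nas-11 and nas-37 lay apart. The plot of mean levels shows all 36 detected members.

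**Figure D1:**
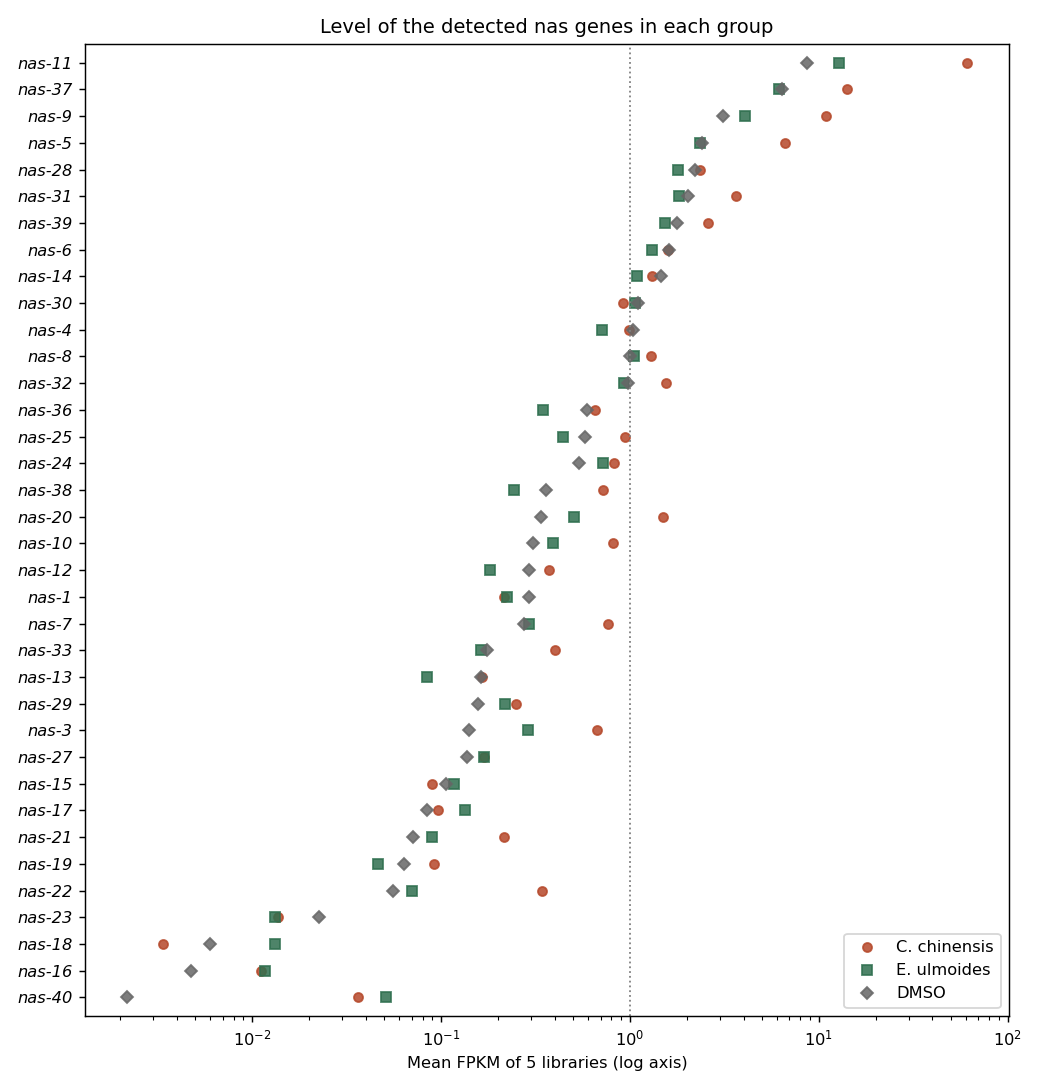
Mean FPKM (log axis, n = 5 libraries a group) of the 36 nas genes detected in at least 1 library, ordered by their level with DMSO. The dotted line marks 1 FPKM. nas-11 stands at 60.8 FPKM with C. chinensis, 12.8 with E. ulmoides and 8.70 with DMSO, and most members lie under 1 FPKM in every group.

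With C. chinensis against DMSO, 5 of the 14 nas genes tested were higher and 0 were lower, where 16.9% of all 13743 genes tested were called higher and 3.47% lower. The 5 were nas-11, nas-9, nas-20, nas-5 and nas-37, with folds from 1.94 to 6.21. Among the 12 members that pass the filter without the C. chinensis libraries, 4 were higher and 0 lower, where 15.8% and 3.68% of the 12951 such genes were, since nas-20 is left out. The median log2 fold change of the 14 was 0.34, against -0.09 over all genes tested. It depended on the scaling, with 0.46 unscaled (all genes 0.06) and 0.06 with quantile normalization (all genes -0.11). At an unadjusted p under 0.05, 9 of the 14 differed, where 70.1% of all genes did. In pools of whole worms, the amount of a tissue and the RNA per cell cannot be told apart; the somatic cell number of an adult is fixed, that of the germline is not. With E. ulmoides against DMSO, 0 of the 14 were called in either direction, and with C. chinensis against E. ulmoides 6 were higher and 0 lower.

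nas-11, a subgroup II astacin with a ShK domain, changed most and was also the most abundant member. It lies on chromosome X (WBGene00003530, bases 6713577 to 6716357 of WBcel235, plus strand). It had 74.3, 50.4, 63.5, 38.8 and 77.1 FPKM in the C. chinensis libraries, 14.5, 10.8, 10.8, 15.9 and 12.2 FPKM in the E. ulmoides libraries, and 4.00, 11.7, 10.2, 11.5 and 6.10 FPKM in the DMSO libraries. All C. chinensis libraries lay above all others, DMSO replicates 1 and 5 were the lowest, and the E. ulmoides and DMSO ranges overlapped. The level averaged 60.8 ± 16.2 FPKM with C. chinensis and 8.70 ± 3.46 FPKM with DMSO (SD, n = 5 each), a log2 fold change of 2.63 ± 0.23 (SE, p_adj = 2.4e-07). Between 319 and 5657 fragments stood behind these values. The gene shares 163 exon bases with smf-2 on the opposite strand, and smf-2 was at 0.109 FPKM or less in every library.

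nas-11 set most of the difference in the summed level of the family. The 37 nas genes together had 87.4 to 141 FPKM in C. chinensis libraries, 36.6 to 46.1 FPKM in E. ulmoides libraries and 30.7 to 45.4 FPKM in DMSO libraries. Without nas-11 the sums were 48.7 to 63.5, 25.8 to 30.3 and 25.3 to 33.7 FPKM in the C. chinensis, E. ulmoides and DMSO libraries. The share of nas-11 in the sum was 44.3 to 56.7% with C. chinensis, 27.8 to 34.5% with E. ulmoides and 13 to 27% with DMSO. These ranges did not overlap, and a share within a library does not depend on the scaling between libraries.

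**Figure D2:**
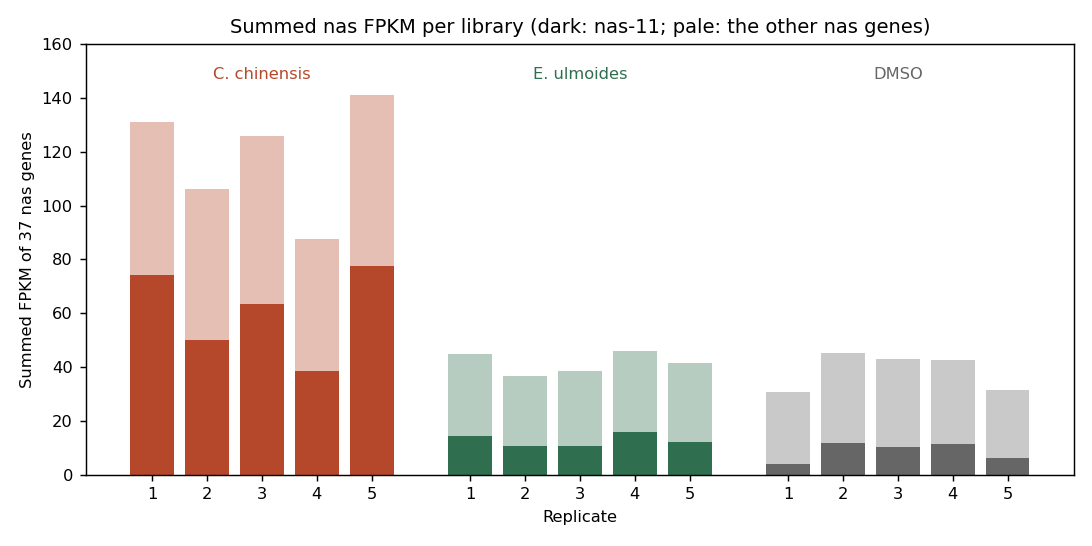
Summed FPKM of the 37 nas genes in each library (x axis: replicate within the group; dark: nas-11, pale: the other 36 genes). The C. chinensis bars reach 87.4 to 141 FPKM, above the bars of E. ulmoides (36.6 to 46.1) and DMSO (30.7 to 45.4), and the dark share is largest with C. chinensis.

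nas-37, a subgroup V protease needed to digest the old cuticle when the worm molts, was the second most abundant member. It lies on chromosome X (WBGene00003553, bases 9944844 to 9949063, minus strand). It had 12.8, 14.2, 15.8, 12.1 and 16.2 FPKM in the C. chinensis libraries, 5.92, 4.72, 5.15, 7.78 and 7.24 FPKM in the E. ulmoides libraries, and 4.97, 6.71, 8.22, 7.53 and 4.68 FPKM in the DMSO libraries. The C. chinensis libraries lay above all others and the remaining groups overlapped. With C. chinensis the log2 fold change against DMSO was 0.96 ± 0.15 (p_adj = 2.8e-05). It shares 32 exon bases with C17G1.5 on the opposite strand, and that gene had 7.64 ± 1.13 FPKM with C. chinensis and 4.27 ± 0.173 FPKM with DMSO.

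nas-9, also of subgroup II, is encoded on chromosome V (WBGene00003528, bases 4836027 to 4840013, minus strand). It had 9.93, 10.1, 11.2, 9.08 and 14 FPKM in the C. chinensis libraries, 3.82, 3.62, 3.99, 4.15 and 4.79 FPKM in the E. ulmoides libraries, and 1.97, 4.26, 2.83, 3.37 and 3.12 FPKM in the DMSO libraries. Every C. chinensis library lay above 9 FPKM and every other library under 5 FPKM. The log2 fold change with C. chinensis against DMSO was 1.52 ± 0.14 (p_adj = 3.9e-07).

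nas-5, of subgroup I with the catalytic domain alone, lies on chromosome I (WBGene00003524, bases 9886189 to 9888224, plus strand). It had 6.02, 6.83, 8.68, 5.82 and 5.98 FPKM in the C. chinensis libraries, 3.04, 2.15, 2.22, 2.48 and 1.88 FPKM in the E. ulmoides libraries, and 2.05, 2.94, 2.65, 2.75 and 1.63 FPKM in the DMSO libraries. The E. ulmoides and DMSO values covered nearly the same range. The log2 fold change with C. chinensis against DMSO was 1.16 ± 0.14 (p_adj = 2.2e-06).

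nas-20, of subgroup III, lies on chromosome V (WBGene00003539, bases 11470925 to 11472309, minus strand) and was near the lower limit of the test. It had 1.32, 1.41, 1.69, 1.07 and 2.00 FPKM in the C. chinensis libraries, 0.490, 0.220, 0.549, 0.931 and 0.337 FPKM in the E. ulmoides libraries, and 0.276, 0.487, 0.657, 0.0835 and 0.192 FPKM in the DMSO libraries. Only C. chinensis libraries reached 1 FPKM, and DMSO replicate 4 held 4 fragments. The log2 fold change with C. chinensis against DMSO was 1.17 ± 0.21 (p_adj = 0.00013), given as a description because nas-20 passed the FPKM filter only through C. chinensis libraries. Since the pseudocount of 0.5 is about as large as its level with DMSO, this value understates the change, and the model on fragments described further on gave 2.04 ± 0.38 (p_adj = 9.7e-05).

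nas-31, of subgroup IV, lies on chromosome V (WBGene00003549, bases 10918857 to 10921847, minus strand) and stood at the fold limit. It had 3.73, 3.69, 3.60, 3.21 and 4.14 FPKM in the C. chinensis libraries, 2.02, 1.76, 1.68, 1.78 and 1.85 FPKM in the E. ulmoides libraries, and 1.71, 2.11, 2.17, 2.33 and 1.89 FPKM in the DMSO libraries. The C. chinensis values lay above all others. The log2 fold change with C. chinensis against DMSO was 0.58 ± 0.10 (p_adj = 6.2e-05), just under the limit of 0.585, and against E. ulmoides it was 0.59 ± 0.10 (p_adj = 4.0e-05), just above it. Single libraries decided these calls: against DMSO it was called without C. chinensis replicate 3 or 4 or DMSO replicate 3 or 4, with 0.59 to 0.62, and against E. ulmoides the call was lost without C. chinensis replicate 2 or E. ulmoides replicate 2, 3 or 4, with 0.57 to 0.58.

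**Figure D3:**
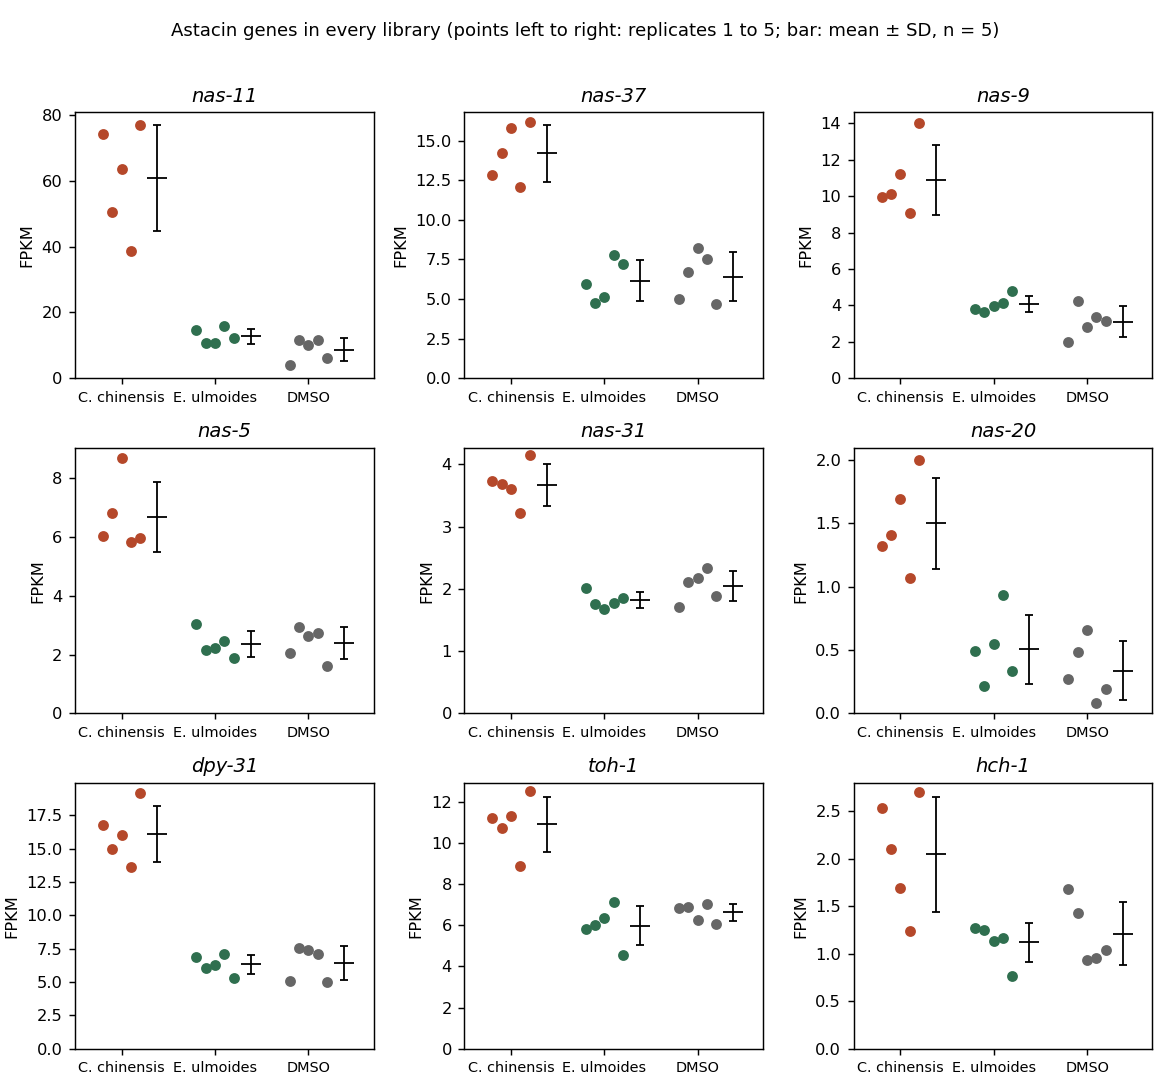
FPKM of 6 nas genes and of 3 astacin genes with other names in every library (points: replicates 1 to 5 from left to right; horizontal mark and bar: mean ± SD, n = 5; axes start at 0). In all panels but that of hch-1 the C. chinensis points lie above those of the other groups, and E. ulmoides and DMSO points overlap throughout.

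The other 8 members that passed the filter were not called in any comparison. nas-39, the tolloid-type astacin, had 2.59 ± 0.224 FPKM with C. chinensis and 1.78 ± 0.246 FPKM with DMSO (SD, n = 5 each), a log2 fold change of 0.31 ± 0.11 (p_adj = 0.015) that missed the fold limit. It shares 276 exon bases with F38E9.1 on the same strand, which had 11.9 ± 1.43 FPKM with C. chinensis and 9.06 ± 0.409 FPKM with DMSO. nas-32, the other member of subgroup IV, gave 0.36 ± 0.14 (p_adj = 0.029). nas-30 had the lowest value, -0.28 ± 0.13 (p_adj = 0.071). nas-4, nas-6, nas-8, nas-14 and nas-28 gave log2 fold changes from -0.22 to 0.14, with 95% intervals between -0.60 and 0.43. nas-6 takes part in forming the pharyngeal grinder, and its level was 1.60 ± 0.225 FPKM with C. chinensis and 1.61 ± 0.310 FPKM with DMSO.

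**Figure D4:**
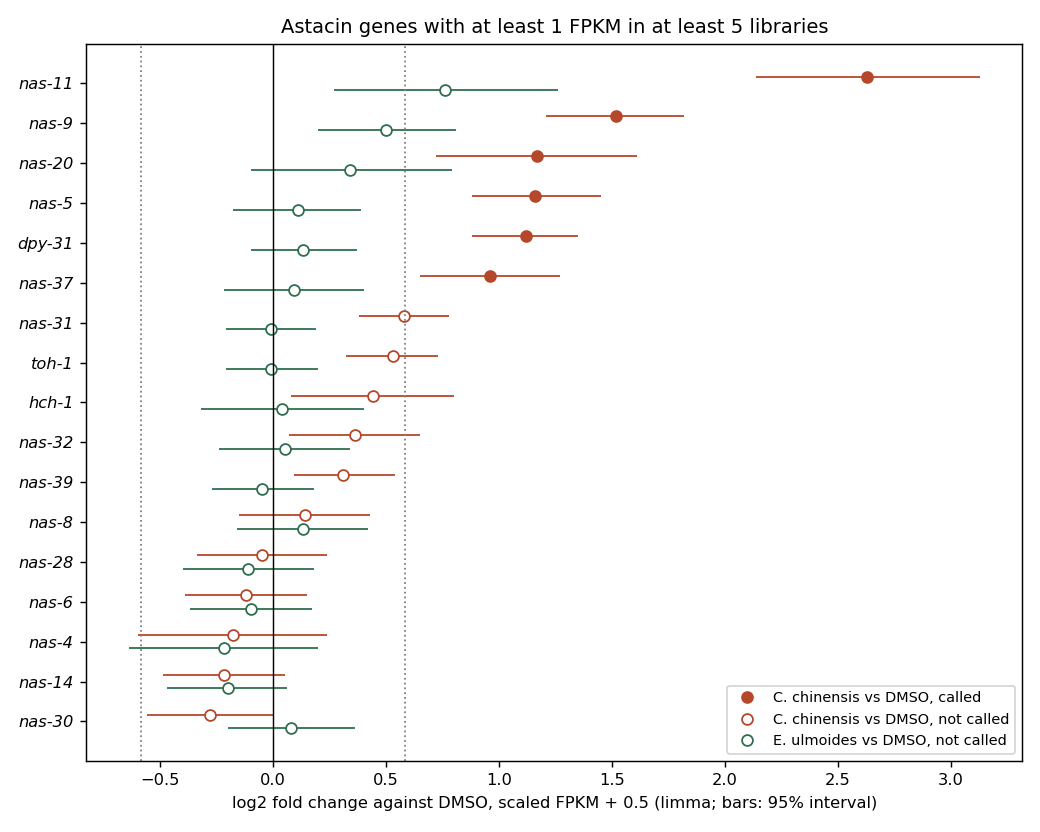
Log2 fold changes against DMSO on the scale of scaled FPKM + 0.5 (points; bars: 95% interval) for the 14 nas genes and the 3 other astacin genes that passed the filter, with C. chinensis above E. ulmoides for each gene. Filled points are called, and dotted lines mark the fold limit at 0.585 on either side of 0. nas-11, nas-9, nas-20, nas-5, dpy-31 and nas-37 are filled for C. chinensis, and no point is filled for E. ulmoides.

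Most nas genes were too low for this filter, so that they were also tested on whole fragments recovered from the FPKM (limma-voom). The test ran over 16969 genes with at least 10 fragments in at least 5 libraries. This choice was made after the data had been seen. Of the 37 members, 31 entered, 4 of them (nas-13, nas-17, nas-21 and nas-22) only because C. chinensis libraries were counted. With C. chinensis against DMSO, 12 were higher and 0 lower, where 17.7% of all genes were called higher and 5.11% lower. Of the 27 members that pass without the C. chinensis libraries, 11 were higher and 0 lower, where 17.7% and 5.32% of such genes were, since nas-22 is left out. The 12 were the 5 above, nas-31, and 6 members under 1 FPKM on average in every group, nas-3, nas-7, nas-10, nas-22, nas-33 and nas-38. The median log2 fold change of the 31 was 0.49, against -0.06 over all genes. After scaling, all 5 C. chinensis libraries lay above all 5 DMSO libraries for 12 members, the same as those called but with nas-39 in place of nas-33, where 20.4% of all genes did so. For 0 members all C. chinensis libraries lay below, where 22.1% of all genes did so.

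Among these low members, nas-38, a subgroup V astacin known from the sleep that goes with molting, had 60 to 122 fragments (median 71) with C. chinensis and 19 to 82 (median 51) with DMSO. Its FPKM were 0.660, 0.853, 0.683, 0.644 and 0.747 in the C. chinensis libraries, against 0.179, 0.428, 0.533, 0.273 and 0.382 in the DMSO libraries, without overlap. The log2 fold change was 0.83 (95% interval 0.33 to 1.33, p_adj = 0.0054). nas-7, which like nas-6 acts in forming the grinder, had 0.765 ± 0.226 FPKM with C. chinensis and 0.274 ± 0.107 FPKM with DMSO (SD, n = 5 each), a log2 fold change of 1.36 (95% interval 0.65 to 2.07, p_adj = 0.0017). nas-6 gave -0.20 in the same model (95% interval -0.57 to 0.16).

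nas-3 had 20 to 51 fragments with C. chinensis and 1 to 14 with DMSO, a log2 fold change of 2.31 (95% interval 1.16 to 3.46, p_adj = 0.0011). nas-22 had 14 to 24 fragments with C. chinensis and 0 to 9 with DMSO, and it entered the test only through the C. chinensis libraries, so that its log2 fold change of 2.64 (95% interval 1.23 to 4.05, p_adj = 0.0021) is given as a description. nas-10 gave 1.13 (95% interval 0.46 to 1.79, p_adj = 0.0046). nas-33 gave 1.04 (95% interval 0.21 to 1.86, p_adj = 0.029), and it lost its call when any of C. chinensis replicates 1 and 3 or DMSO replicates 2 and 5 was left out. nas-36, which like nas-37 is needed for molting, had 0.657 ± 0.223 FPKM with C. chinensis and 0.590 ± 0.181 FPKM with DMSO, and a log2 fold change of -0.15 (95% interval -0.76 to 0.45). When C. chinensis replicate 1 was left out, nas-4 (-0.66, p_adj = 0.018) and nas-30 (-0.59, p_adj = 0.0075) were called lower in this model. nas-4 shares 437 exon bases with C05D11.5 on the same strand. Its recovered fragments were even in every library and may be a multiple of the true ones, so that its p_adj may be too small.

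**Figure D5:**
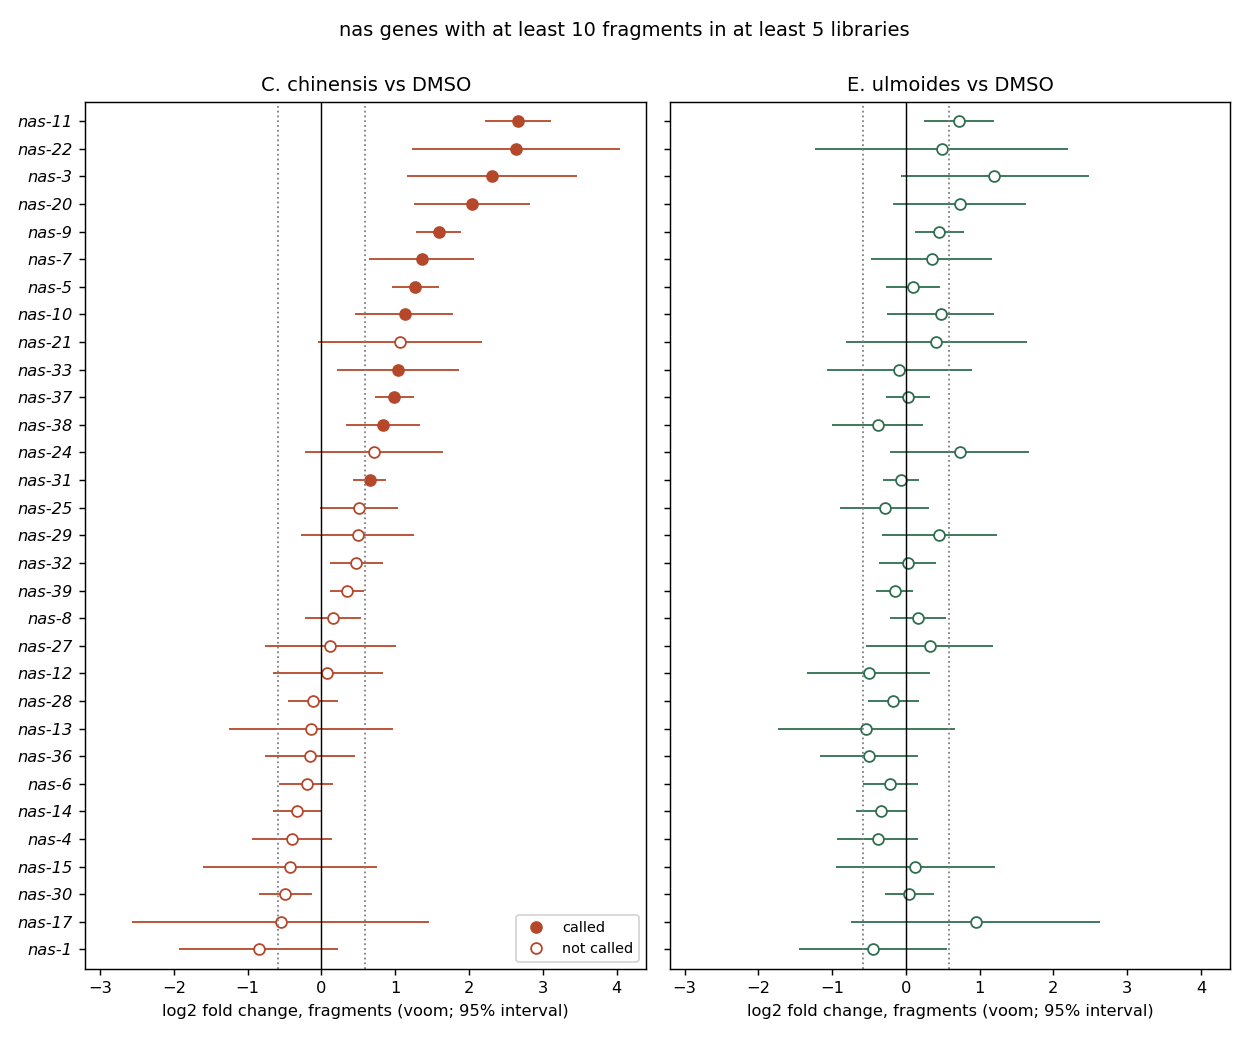
Log2 fold changes against DMSO from fragments (limma-voom; points with 95% intervals) of the 31 nas genes with at least 10 fragments in at least 5 libraries, for C. chinensis (left) and E. ulmoides (right), in the order of the C. chinensis values. Filled points are called, and dotted lines mark the fold limit. With C. chinensis 12 points are filled, from nas-11 at 2.66 to nas-31 at 0.66, and with E. ulmoides 0 are filled.

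By subgroup, the calls from fragments with C. chinensis against DMSO took in 2 of 4 members tested in subgroup I, 4 of 10 in II, 2 of 10 in III, 1 of 2 in IV, 3 of 4 in V and 0 of 1 in VI, where 17.7% of all genes were higher. nas-13 of II and nas-17, nas-21 and nas-22 of III entered only through C. chinensis libraries, and nas-22 is among those called in III. Chromosome V holds 14 of the 37 members, X 8, II 5, IV 4, I 3 and III 3. A group of 4 neighbours on chromosome V, nas-16 to nas-19 within 10.4 kb (bases 11392320 to 11402710), was nearly silent, with 0 to 22 fragments in any library. Another group of 3, nas-20 to nas-22, lay within 7.1 kb (bases 11470925 to 11478007). Of these, nas-20 was called, and the call of nas-22 is a description, as said above. nas-21, which also entered only through C. chinensis libraries, gave a log2 fold change of 1.06 (95% interval -0.05 to 2.17, p_adj = 0.094). How fragments shared by similar neighbours were counted is not given in the sources used here. The 6 members that did not enter this test, nas-2, nas-16, nas-18, nas-19, nas-23 and nas-40, had at most 13 fragments in any library.

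Among the astacin genes with other names, dpy-31 rose with C. chinensis. Its product is the protease that removes the C-terminal propeptide of the cuticle collagen SQT-3. dpy-31 lies on chromosome III (WBGene00006592, bases 7202206 to 7207664, plus strand). It had 16.8, 15, 16, 13.6 and 19.2 FPKM in the C. chinensis libraries, 6.86, 6.09, 6.28, 7.13 and 5.31 FPKM in the E. ulmoides libraries, and 5.11, 7.57, 7.40, 7.12 and 4.97 FPKM in the DMSO libraries, so that C. chinensis stood apart. The log2 fold change against DMSO was 1.12 ± 0.11 (p_adj = 5.4e-07), and sqt-3 itself gave 0.64 ± 0.13 (p_adj = 0.00031). toh-1 had 8.88 to 12.5 FPKM (median 11.2) with C. chinensis and 6.05 to 7.02 FPKM (median 6.85) with DMSO, a log2 fold change of 0.53 ± 0.10 (p_adj = 0.00015) under the fold limit. hch-1, the hatching enzyme of the embryo, had 1.24 to 2.7 FPKM (median 2.10) with C. chinensis and 0.931 to 1.68 FPKM (median 1.04) with DMSO, a log2 fold change of 0.44 ± 0.17 (p_adj = 0.029) that was not called either.

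With E. ulmoides against DMSO, no nas gene was called by either model, where 1.11% of all genes tested on FPKM were called higher and 0.109% lower, and 0.242% and 0.130% on fragments. At an unadjusted p under 0.05, 2 of 14 differed on FPKM, where 23.3% of all genes did, and 3 of 31 on fragments, where 14.7% did. nas-11 averaged 12.8 ± 2.30 FPKM with E. ulmoides and 8.70 ± 3.46 FPKM with DMSO, a log2 fold change of 0.76 ± 0.23 (p_adj = 0.066). After scaling, each of the 5 E. ulmoides libraries lay above each of the 5 DMSO libraries in nas-11 (exact two-sided permutation p = 0.0079, the smallest that 5 against 5 allows), which was so for 6.52% of the 16969 genes with enough fragments, and in the other direction for 0.99%. Without DMSO replicates 1 and 5, the nas-11 value was 0.35 (p_adj = 0.26). nas-9 averaged 4.07 ± 0.447 FPKM with E. ulmoides and 3.11 ± 0.831 FPKM with DMSO, a log2 fold change of 0.50 ± 0.14 (p_adj = 0.053). Without DMSO replicate 2, nas-9 was called (0.60, p_adj = 0.027).

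For nas-5, nas-37, nas-31 and dpy-31, the values with E. ulmoides against DMSO lay near 0. The log2 fold changes were 0.11 for nas-5 (95% interval -0.18 to 0.39), 0.09 for nas-37 (-0.22 to 0.40), 0.13 for dpy-31 (-0.10 to 0.37) and -0.01 for nas-31 (-0.21 to 0.19). These intervals end below the fold limit of 0.585. For nas-20 the value was 0.34 (-0.10 to 0.79), and the interval reaches past that limit. On fragments it was 0.73 (-0.17 to 1.63). The low members had wide intervals on fragments, with 1.20 for nas-3 (-0.07 to 2.48), 0.49 for nas-22 (-1.23 to 2.20), 0.47 for nas-10 (-0.26 to 1.20) and 0.35 for nas-7 (-0.47 to 1.17). The values were -0.09 for nas-33 (-1.07 to 0.89) and -0.38 for nas-38 (-1.0 to 0.23). The intervals of these members, except that of nas-38, reach past the upper limit. Those of nas-22, nas-33 and nas-38 reach past the lower limit.

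Both extracts were applied at the same concentration, and worms were sampled on the same day of adulthood. Their direct comparison called 6 nas genes higher with C. chinensis and 0 lower, where 13.2% of all genes tested were higher and 9.51% lower. Without the members that pass only through C. chinensis libraries it was 5 of 12 and 0, where 12.2% and 10.1% of such genes were. The log2 fold changes were 1.87 ± 0.23 for nas-11 (p_adj = 3.1e-06), 1.06 ± 0.14 for nas-5 (p_adj = 3.7e-06), 1.02 ± 0.14 for nas-9 (p_adj = 1.0e-05), 0.87 ± 0.15 for nas-37 (p_adj = 5.5e-05) and 0.82 ± 0.21 for nas-20 (p_adj = 0.0023), with nas-31 as given above. The nas-20 value is again a description. dpy-31 was higher by 0.98 ± 0.11 (p_adj = 1.2e-06). From fragments, 12 of 31 nas genes were higher and 0 lower, where 17.6% and 6.48% of all genes were. Of the 27 members that pass without the C. chinensis libraries, 11 were higher and 0 lower, where 17.7% and 6.74% of such genes were, since nas-22 is left out. For 10 members, nas-22 among them, all C. chinensis libraries lay above all E. ulmoides libraries and for 0 below, where 18.3% and 23.5% of all genes did so. The calls from fragments are described next. They took in nas-25, with 0.938 ± 0.337 FPKM with C. chinensis and 0.445 ± 0.0931 FPKM with E. ulmoides (log2 fold change 0.80, p_adj = 0.014), and left out nas-10 (0.65, p_adj = 0.056). Leaving out each library in turn gave 10 to 14 higher from fragments, and nas-25 lost its call without E. ulmoides replicate 3. Without C. chinensis replicate 1, nas-30 was called lower in this model (-0.63, p_adj = 0.0042). The comparisons share libraries, so that their calls are not independent of each other.

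Genes that work on the cuticle and matrix beside the astacins were taken as further lists. Of the collagen processing and cross-linking enzymes, 6 of 9 tested were higher with C. chinensis against DMSO and 0 lower (median log2 fold change 0.65), and 6 of 10 and 0 on fragments. The share of all genes for this and the following counts on FPKM was 16.9% higher and 3.47% lower, and on fragments 17.7% and 5.11%. bli-3, the dual oxidase that helps cross-link cuticle collagens, gave 0.96 ± 0.11 (p_adj = 1.6e-06), the peroxidase gene mlt-7 gave 0.92 ± 0.12 (p_adj = 6.3e-06), and dpy-18, a subunit of prolyl 4-hydroxylase, gave 0.69 ± 0.09 (p_adj = 5.9e-06). The peroxidase gene skpo-1 stood at the limit with 0.59 ± 0.07 (p_adj = 3.4e-06), and on fragments it was 0.56, under the limit. Of the molting and apical matrix genes, 6 of 13 tested were higher and 0 lower (median 0.42), and on fragments 8 of 21 were higher and 1 lower, mlt-10 (-0.67, p_adj = 0.0058). Of the 13, mlt-8 and fbn-1 passed the filter only because C. chinensis libraries were counted. nhr-23 was not called (-0.31 ± 0.09 on FPKM), with all C. chinensis libraries below all DMSO libraries after scaling. The genes called higher took in the kinase genes nekl-2 (0.83 ± 0.10) and nekl-3 (0.95 ± 0.14), mlt-3 (1.09 ± 0.14) and lrp-1, a megalin-like receptor needed for molting (1.14 ± 0.15).

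Among other matrix proteases and their inhibitors, zmp-4, a matrix metalloprotease gene, had 24.5 ± 4.79 FPKM with C. chinensis and 8.08 ± 1.55 FPKM with DMSO (SD, n = 5 each), a log2 fold change of 1.39 ± 0.13 (p_adj = 3.0e-07), and zmp-3 gave 1.32 ± 0.18 (p_adj = 8.0e-06). These were 2 of the 3 zmp genes tested. zmp-3 passed the filter only because C. chinensis libraries were counted, so that its value is given as a description. Of the ADAM and ADAMTS genes, 2 of 7 tested were higher, mig-17 (1.07 ± 0.19), whose product guides gonad cells during migration, and adt-2 (0.98 ± 0.14), known from cuticle and body size. mig-17 also passed the filter only through C. chinensis libraries, and its value is a description. cri-2, which encodes a protein like the tissue inhibitors of metalloproteases, had 89.0 to 127 FPKM (median 93.6) with C. chinensis and 29.2 to 40.5 FPKM (median 33.2) with DMSO, a log2 fold change of 1.41 ± 0.11 (p_adj = 1.0e-07). Of the neprilysin genes, a different family of metalloproteases, 1 of 17 tested was higher, nep-2 (0.64 ± 0.08), and the median was 0.08. On fragments 3 of 25 were higher and 1 was lower, nep-15 (-1.02, p_adj = 0.042). With E. ulmoides against DMSO, 0 genes of these lists were called on FPKM, and on fragments 1 was lower, nep-10 (-0.65, p_adj = 0.031).

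Genes that mark tissues also moved with C. chinensis. The summed FPKM of 7 epidermal markers was 29.6 to 64.5 with C. chinensis, 13.4 to 17.5 with E. ulmoides and 10.8 to 18 with DMSO. All 3 of these past the FPKM filter were called higher, elt-3 (0.99 ± 0.12), col-19 (2.31 ± 0.40) and sqt-3. On fragments 3 of 5 were higher, and dpy-7 (0.90, 95% interval -0.40 to 2.20) and che-14 (0.32, 95% interval -0.01 to 0.64) were not called. The collagen genes dpy-13 and rol-6 were too low for either test, and rol-6 lay lower in all C. chinensis libraries, with 1 to 4 fragments, than in all DMSO libraries, with 4 to 12 fragments, after scaling. Of the 7, 1, 3 and 1 averaged under 0.1 FPKM in C. chinensis, E. ulmoides and DMSO libraries. Of body wall muscle markers 5 of 6 were higher (summed 263 to 388 FPKM with C. chinensis and 149 to 187 FPKM with DMSO). Of intestinal markers 3 of 6 were higher, with sums of 1620 to 2550 FPKM and 388 to 723 FPKM in these groups. Of pharyngeal gland markers 1 of 2 was higher. Of pharyngeal muscle markers 0 of 5 and of neuronal markers 0 of 7 were called, but their median log2 fold changes were 0.36 and 0.44. The median over all genes tested was -0.09. Summed FPKM of neuronal markers was 491 to 572 with C. chinensis and 367 to 391 with DMSO. That of pharyngeal muscle markers was 58.1 to 65.8 with E. ulmoides and 75.3 to 86.5 with DMSO (median log2 fold change -0.3). Of germline and oocyte markers 2 of 10 were lower and 0 higher (median -0.43), and their summed FPKM was 1430 to 1920 with C. chinensis and 2030 to 2090 with DMSO. Of early embryo markers, 0 of 1 was called on FPKM and 3 of 6 were lower on fragments. The part of these shifts in the values of the nas genes was not tested.

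Low values in the DMSO group came mostly from the same libraries. Among the 14 nas genes and 3 other astacin genes past the filter, DMSO replicate 5 was the lowest DMSO library for 7 and replicate 1 for 5. col-19 was also lowest in these libraries, with 1.11 and 1.13 FPKM against 2.42 to 4.2 in the other DMSO libraries. Without both libraries, the same numbers of nas genes were called, 5 with C. chinensis against DMSO and 0 with E. ulmoides against DMSO, and the values with C. chinensis were 2.22 for nas-11, 1.38 for nas-9, 1.08 for nas-20, 0.99 for nas-5 and 0.75 for nas-37.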

How the data were processed

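The authors sequenced paired-end reads from NEBNext Ultra libraries, aligned them to WBcel235 with HISAT2 (version not given in the sources used here) and deposited FPKM per gene for all 15 libraries. The kit is not stated to keep strand, so overlapping genes on opposite strands cannot be separated. The values of piRNA genes, all 21 bases long, gave each library total. With these, a gene length was sought that made the FPKM whole fragments within 0.0001 in all libraries. Such a length was found for all 26686 genes above 0. For 10628 genes it was the length of all annotated exons joined. Otherwise the fitting length nearest to that was taken, so that the fragments of some genes may be a multiple of the true ones. This may be so for nas-4, whose fragments were even in every library at 2494 bases, against 2324 bases of exons. The tests used R 4.3.3 with limma 3.58.1, and tables were made with Python 3.11.15 and pandas 2.3.3. FPKM were scaled by trimmed means of M values without weights (30% of M, 5% of A trimmed). A limma model with mean-variance trend, fitted to log2(scaled FPKM + 0.5) of all 15 libraries, gave the 3 comparisons. This fit was tested on simulated data for C. chinensis against DMSO, and the model on fragments was not tested in this way. Fold changes on the scale of scaled FPKM + 0.5 understate those of low genes. Positions are from Ensembl release 115 and WBcel235.

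Given with every library are the members called on FPKM in any comparison and the 4 most abundant with DMSO. The 3 other astacins are given in the same way, whatever their values. Each further list gives up to 4 called genes with the smallest p, and genes under the filter, and list genes called only on fragments or lying against their list, were named after their values were seen. Members, lists and this rule were chosen with earlier results of these data known. Alternatives covered scaling, pseudocount, filter, libraries in the fit, a replicate block, voom on fragments, an exact Wilcoxon test, the fold limit and each library left out. The test on at least 10 fragments and the fit without DMSO replicates 1 and 5 were added after seeing the data. adt-3 and timp-1 of the lists are not analysed here, nas-26, nas-34 and nas-35 are toh-1, hch-1 and dpy-31, and no sequences were used.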

Additional observations from a re-analysis of the deposited data

Results flagged for a closer look

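hch-1 in E. ulmoides replicate 5 had 0.763 FPKM, the lowest of its group, against 1.14 to 1.27 FPKM in the other E. ulmoides libraries. Its distance to the nearest of them was 0.754 of the range of the group. This was 1 of 27 groups looked at, over 9 astacin genes in 3 groups, and chance marks about 1 in 20. The value lowers the E. ulmoides mean of hch-1, which was not called in any comparison.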

How the results depend on the processing

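The number of nas genes higher with C. chinensis against DMSO (5) was 3 with a filter at a mean FPKM of 5, which leaves 3 members, 8 without a fold limit, and 12 on fragments with at least 10 in at least 5 libraries. Leaving out each library in turn gave 5 to 6. Against E. ulmoides (6 higher, 0 lower) it was 3 with the filter at a mean of 5 and 12 on those fragments, with 5 to 6 when a library was left out, and 1 was lower (nas-30) with quantile normalization and without a fold limit. With E. ulmoides against DMSO, 0 were higher, and 0 to 1 when a library was left out. All other alternatives gave 5 to 6 and 5 to 7 higher with C. chinensis against DMSO and E. ulmoides, and 0 with E. ulmoides against DMSO. Fold changes were compared across the alternatives only for the 6 nas genes and 3 other astacin genes given with every library. Of these 27 fold changes, none turned its direction past a test. Those of nas-31, toh-1, hch-1 and nas-9 changed sides of a limit under some alternatives. Without a fold limit, nas-31, nas-32 and nas-39 were the 3 further members higher than with DMSO. nas-31 with C. chinensis against DMSO ranged between 0.28 and 0.74. nas-5, nas-20, nas-31 and hch-1 have no value under the filter at a mean of 5.

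The model with a replicate block gave 5, 0 and 6 calls, as without it. The 15 correlations between same-numbered libraries of different groups, after removing group means, ran from -0.245 to 0.061. They showed no pairing by the replicate numbers of the titles, but cannot tell whether same-numbered libraries were raised together. The deposited column labels carry other numbers, some shared between groups. Most libraries that share a label number also share a replicate number, so that their correlations are among these. Pairs that share a label number but not a replicate number were not tested.

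Without further scaling, the median of all genes moved to 0.06 from -0.09 for C. chinensis against DMSO, to -0.07 from 0.07 for E. ulmoides against DMSO, and to 0.22 from -0.05 for C. chinensis against E. ulmoides. The share of higher genes among all calls was 83.0% with C. chinensis against DMSO. It became 96.2% with the FPKM left unscaled, 89.1% when scaled by medians of ratios and 65.0% when quantiles were equalised. With E. ulmoides against DMSO it was 91.1%, and 44.4, 85.7 and 78.0% under these settings in that order. With C. chinensis against E. ulmoides it was 58.1%, and 97.9, 77.8 and 64.2%. The count of all genes called higher with E. ulmoides against DMSO was 153, against 20, 78 and 32 under the same settings, 5 without a filter, 73 with the replicate block, 0 by the Wilcoxon test, and 18 to 216 when a library was left out. With C. chinensis against DMSO, 477 genes were lower, against 125 unscaled, 852 with equal quantiles and 1059 with no filter. Depth limits the members under 1 FPKM, such as nas-22 with 0 to 24 fragments a library.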
